A study of Caenorhabditis elegans with 15 samples.

Results

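The comparison described here sets eat-2 mutant worms against N2 wild-type worms, both kept on vehicle, and its members are 6 of the 15 arrays of the series. They were taken by title: 3 arrays of eat-2 worms and 3 of N2 worms, each on plates with 2% DMSO alone. eat-2 encodes a subunit of a nicotinic acetylcholine receptor of the pharynx, the muscular pump with which a worm swallows bacteria. Without that receptor the pharynx pumps slowly and the worm takes in less food, and eat-2 mutants are therefore kept as a genetic model of caloric restriction that lasts through the whole life. In worms short of food, the intestine is known to turn to its stores, and lysosomes, the organelles that digest cell material, are part of that response. The epidermis secretes the collagen cuticle, which is renewed at each moult, and other genes of that tissue rise and fall with the moults and the onset of adulthood.

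The arrays were of the Affymetrix C. elegans Genome Array type and took total RNA from whole worms. On them a gene is read by 1 or more sets of short probes, called probe sets. The eat-2 worms were of strain DA465, and the N2 worms were the standard wild isolate. Both were synchronised, raised at 20 °C to the L4 moult and then held for 72 h on medium with 2% DMSO, so that DMSO is shared by both groups. Whether these plates held live or killed bacteria, or FUDR, a drug that blocks reproduction and was used in the study's lifespan assays, is not stated, which bears on the germline, sperm and embryo values. The other 9 arrays were of eat-2 worms on rapamycin, N2 worms on rapamycin and N2 worms on allantoin, 3 of each. Whether the 3 arrays of a group came from separate cultures is not stated, and p-values therefore measure only the spread between these samples. An array of whole worms reads all tissues together, and fewer cells of a type cannot be told apart from less RNA per cell.

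Signals are given on the log2 scale of the deposited values, on which a difference of 1 is a 2-fold change. A probe set was called when its unadjusted limma p was under 0.05 and the difference was over 2-fold, and counts by the p adjusted after Benjamini and Hochberg follow. A p under 0.05 alone was reached by 1712 probe sets (7.59%). Of 22548 probe sets, 342 (1.52%) were called, 159 (0.705%) of them higher and 183 (0.812%) lower in eat-2 worms. At an adjusted p under 0.05 there were 9 (0.0399%), and 3243 (14.4%) had 3 eat-2 arrays and 3 N2 arrays that did not overlap. With each gene read by its brightest probe set, 273 of 17118 genes (1.59%) were called, 129 (0.754%) higher and 144 (0.841%) lower.

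The eat-2 arrays were alike, with correlations of 0.9905 to 0.9976 among themselves, against 0.9669 to 0.9815 among the N2 arrays, and the median SD of a probe set was 0.111 in eat-2 worms and 0.21 in N2 worms. N2 replicate 1 correlated more closely with the allantoin arrays (0.9925 to 0.9968) than with its own group (0.9669 to 0.976), and N2 replicate 2 more closely with the N2 rapamycin arrays (0.9823 to 0.9843). N2 replicate 1 was also closer to the eat-2 vehicle arrays (0.9855 to 0.9896) than to its own group. N2 replicate 3 reached 0.9895 with eat-2 replicate 2, against 0.976 to 0.9815 within its own group. Single arrays therefore weighed on the counts. Without N2 replicate 1, 1144 probe sets were called, and 445 had an adjusted p under 0.05. Without N2 replicate 2 the counts were 204 and 2, without N2 replicate 3 454 and 80, without eat-2 replicate 1 196 and 0, without eat-2 replicate 2 369 and 0, and without eat-2 replicate 3 214 and 1. Of the 342 called probe sets, 130 were called in the same direction whichever array was left out, 74 higher and 56 lower.

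Markers of the pharynx, intestine, body wall muscle, neurons, epidermis, germline, sperm and embryo were all measured, and in every list but that of the embryo each marker reached a signal of 5.14, under which the dimmest 25% of probe sets lie and which is called the dim bound here, in at least 1 of the 6 arrays. The probe set of eat-2 itself lay close to that bound, at 5.47, 5.22 and 5.37 in eat-2 worms, against 5.4, 5.55 and 5.48 in N2 worms. The groups overlapped, and the difference of -0.12 was not called (adjusted p = 0.75), so that this probe set is no check of the genotype labels.

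**Figure D1:**
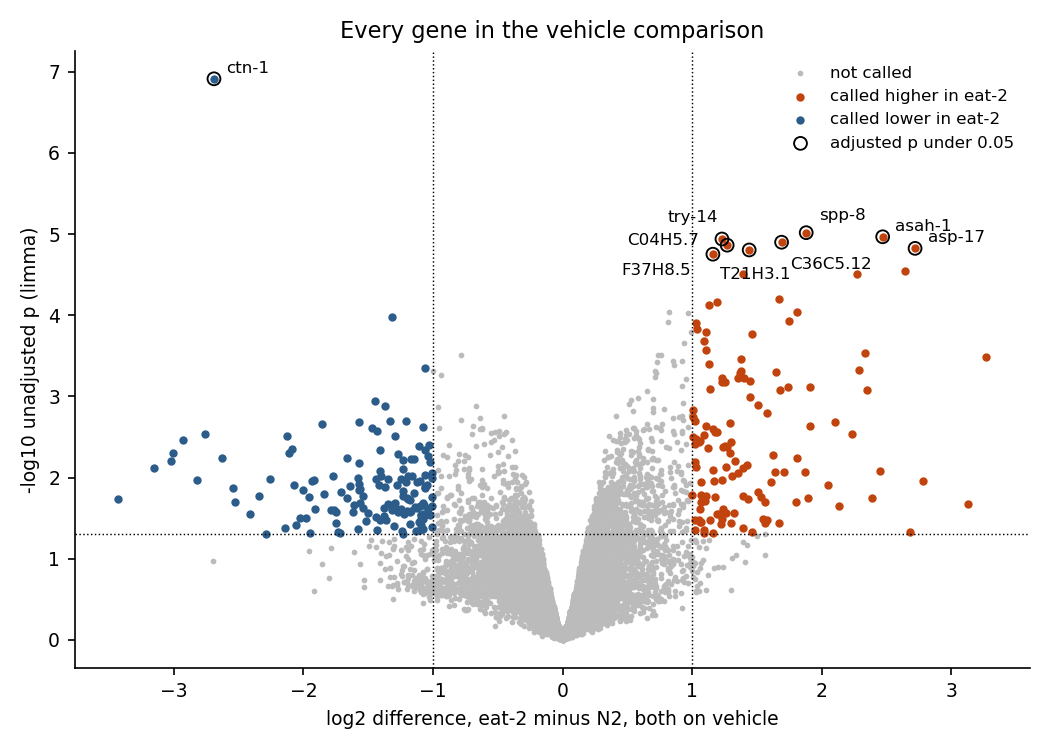
Each point is a gene, with the log2 difference (eat-2 minus N2, both on vehicle) on the horizontal axis and -log10 of the unadjusted limma p on the vertical axis; dotted lines mark the thresholds of fold and p, and circles mark an adjusted p under 0.05. The 9 circled genes are 8 that were higher in eat-2 worms and ctn-1, which was lower.

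The 9 genes at an adjusted p under 0.05 were 8 higher and 1 lower in eat-2 worms, and several encode digestive or lysosomal proteins. asp-17, an aspartic protease, had signals of 7.78, 7.66 and 8.41 in eat-2 worms, against 5.39, 5.06 and 5.24 in N2 worms. All eat-2 arrays stood at least 2-fold above every N2 array, and the N2 signals were at the dim end of the array (difference 2.72, SE 0.22, adjusted p = 0.0442). asah-1, an acid ceramidase that splits ceramide in the lysosome, had 12.92, 12.48 and 12.53 in eat-2 worms and 9.87, 10.27 and 10.39 in N2 worms, a difference of 2.47 (SE 0.19, adjusted p = 0.0442). spp-8, a caenopore of the saposin-like family whose members insert into membranes, had 12.47, 12.31 and 12.41 in eat-2 worms, against 10.41, 10.79 and 10.35 in N2 worms. The groups were far apart in each of these genes, and the 3 eat-2 arrays of spp-8 agreed closely.

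Smaller but equally even differences were measured for 5 more. T21H3.1 was 1.44 higher in eat-2 worms, try-14, a trypsin-like protease, 1.23, and F37H8.5, of a family of lysosomal thiol reductases, 1.16. Their eat-2 arrays lay within 13.27 to 13.62, 12.73 to 12.84 and 11.75 to 11.89, against 11.97 to 12.07, 11.44 to 11.63 and 10.54 to 10.73 in N2 worms. C04H5.7 differed by 1.27. C36C5.12 differed by 1.69, from N2 signals of 4.64 to 4.79 that were below the dim bound, so that the size of its difference is uncertain. These 9 genes were called whichever array was left out, although the number at an adjusted p under 0.05 depended on the arrays, as given above.

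The smallest p of the comparison belonged to ctn-1, which encodes alpha-catulin, a relative of alpha-catenin and vinculin. Its probe set 185467_at had 5.68, 5.79 and 5.9 in eat-2 worms, against 8.42, 8.52 and 8.48 in N2 worms, a 6.44-fold lower signal (difference -2.69, SE 0.096, adjusted p = 0.00274). The other probe sets of the gene went the other way. 171788_x_at averaged 7.15 ± 0.1 in eat-2 worms and 5.49 ± 0.41 in N2 worms, and 187858_at averaged 8.21 ± 0.11 and 6.84 ± 0.39 (SD, 3 arrays each). Both were called higher, by 1.66 and 1.37, and neither group overlapped the other in any of the 3 probe sets. On rapamycin the genotypes differed with the same signs, by -1.83, 0.83 and 0.84, and N2 worms on allantoin had 8.42 ± 0.026 at 185467_at. ctn-1 thus had no single direction, and what the 3 probe sets read of its transcripts was not tested. Of the 273 called genes, 38 had more than 1 probe set, 21 of these had every probe set called the same way, and 5 had probe sets of opposite sign. In the other 4 of those 5, kvs-5, abu-10, F58E6.13 and mua-3, the second probe set was below the dim bound and its difference was 0.2 or less.

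Among the largest differences, 12 genes were higher in eat-2 worms by 2.29 to 3.27 with arrays that did not overlap. Y65B4BR.1 came first, with 11.68, 10.66 and 11.02 in eat-2 worms, against 6.95, 8.21 and 8.39 in N2 worms, a 9.65-fold higher signal (adjusted p = 0.15). W02G9.4 had 11.36, 10.75 and 11.36 in eat-2 worms and 8.81, 8.58 and 8.18 in N2 worms. The N2 arrays agreed well for W02G9.4 and less well for Y65B4BR.1, where replicate 1 was the lowest. C53B7.2 was higher by 2.29, and hch-1, an astacin-type metalloprotease named for hatching, by 2.45, with N2 signals spread over 9.16, 6.69 and 7.84.

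**Figure D2:**
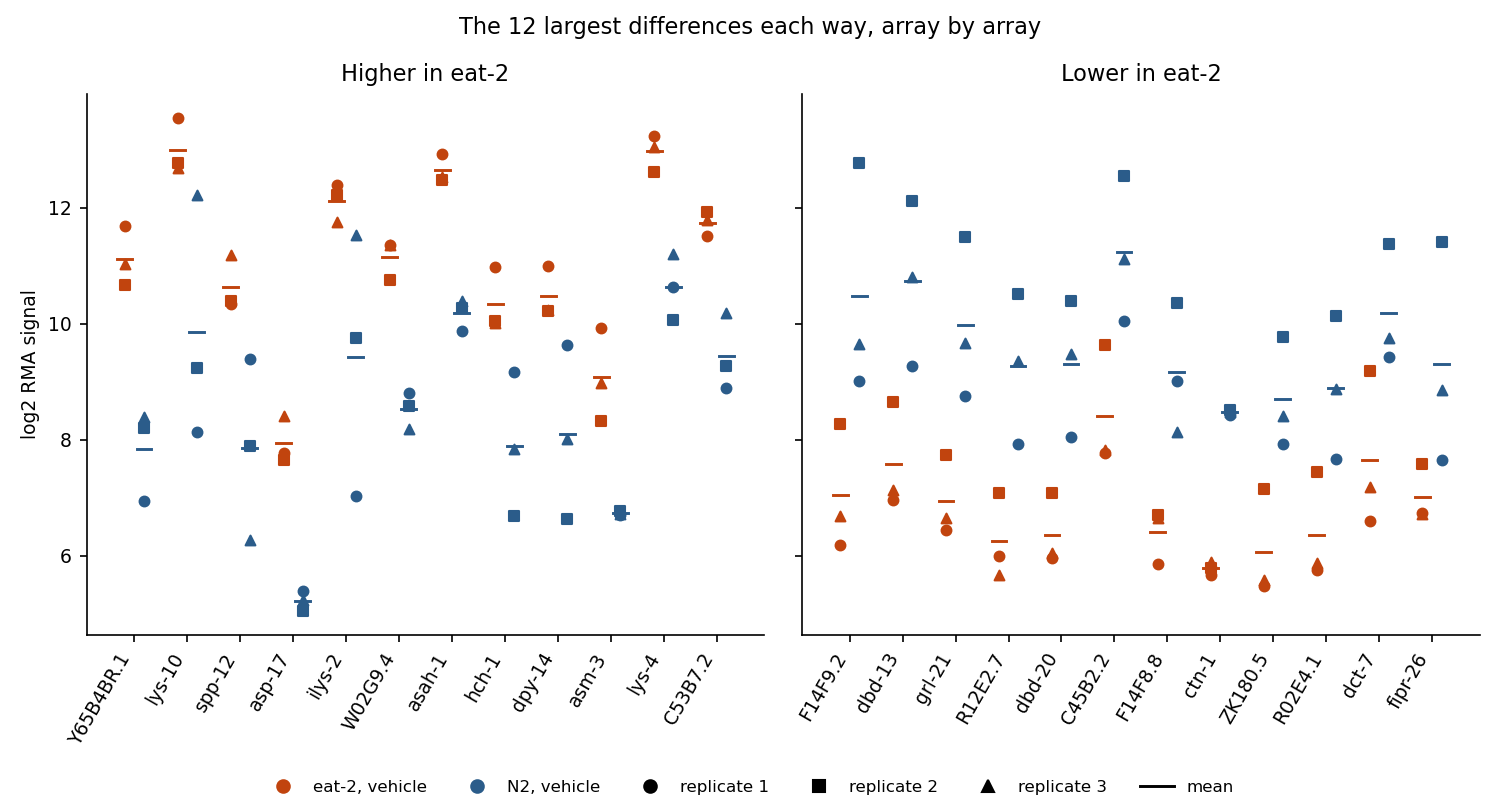
The log2 signal of each of the 6 arrays (vertical axis) for the 12 called genes with the largest differences in each direction (horizontal axis), eat-2 arrays in red left of N2 arrays in blue, with the replicate as the symbol and the group mean as a line. In each of the 12 lower genes N2 replicate 2, the square, is the highest array, by almost nothing in ctn-1 and clearly in the others.

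Lysozymes are enzymes that cut bacterial cell walls and that the worm intestine uses against its food and its pathogens. In eat-2 worms 5 of 16 measured lysozyme genes (31.2%) were called higher and 0 lower, against 0.754% and 0.841% of all genes. lys-4 had 13.23, 12.62 and 13.05 in eat-2 worms, against 10.63, 10.07 and 11.2 in N2 worms, a difference of 2.33 (adjusted p = 0.149). lys-10 had 13.54, 12.76 and 12.68 in eat-2 worms and 8.13, 9.23 and 12.21 in N2 worms. The groups of lys-10 did not overlap, but N2 replicate 3 nearly reached the eat-2 arrays. ilys-2, of the invertebrate type, had the same arrangement, with 12.38, 12.22 and 11.75 in eat-2 worms, against 7.03, 9.75 and 11.52 in N2 worms. Its call was lost without N2 replicate 2 or any single eat-2 array, and that of lys-10 without eat-2 replicate 1 or N2 replicate 2 (unadjusted p between 0.064 and 0.112). ilys-5 and lys-7 were higher by 1.87 and 1.71 and stayed called without any 1 array, so that 3 lysozymes were called without eat-2 replicate 1 and 3 without N2 replicate 2. lys-1, lys-2 and lys-3 were not called, with differences of -0.38, -0.8 and -1.06. The median over the list was 0.28, against 0.02 over all genes. The 8 intestine markers averaged 9.16, 9.11 and 9.19 in eat-2 worms, against 9.14, 9.44 and 8.8 in N2 worms, with 0 called and a median of 0. In the intestine list 0 of 12 genes were called on vehicle, with 8 negative differences and a median of -0.2.

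Of the saposin-like caenopores, which permeabilise membranes and help the gut to kill bacteria, 3 of 18 (16.7%) were called higher and 0 lower. Of all genes 0.754% were called higher. The median of the list was 0.46. spp-12 had 10.34, 10.39 and 11.18 in eat-2 worms, against 9.4, 7.9 and 6.27 in N2 worms. The N2 arrays spread widely, and no N2 array reached the lowest eat-2 array. spp-4 was higher by 1.62. A probe set of spp-10, outside the count of 3, was called higher by 1.62 whichever array was left out. Without N2 replicate 1, 4 caenopores were called higher and 2 lower. The C-type lectins, carbohydrate-binding proteins of which many are made in the gut, had 4 of 220 (1.82%) called higher and 0 lower. That is a small excess over the 0.754% of all genes called higher. clec-222 differed by 2.05 and clec-145 by 1.19, while clec-31 and clec-174 kept their calls in 1 of the 6 fits that leave out an array (unadjusted p of 0.0517 to 0.143 in the others). The lectins called numbered 2 higher and 0 lower without eat-2 replicate 1, 8 higher and 3 lower without N2 replicate 1, and 5 higher and 4 lower without N2 replicate 3.

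Aspartic proteases and sphingolipid enzymes, both lists with lysosomal members, were higher in part. Of 15 aspartic proteases 4 (26.7%, against 0.754% of all genes) were called higher and 0 lower. Positive differences were found in 13 of 15, and the median was 0.46. Beside asp-17, asp-12 differed by 1.81, with 10.6, 10.27 and 10.91 in eat-2 worms and 8.86, 9.59 and 7.89 in N2 worms. asp-3, one of the brightest genes on the array, had 14.16, 14.01 and 14.21 in eat-2 worms, against 13.18, 13.44 and 12.73 in N2 worms. Its difference of 1.01 is just past 2-fold, and it fell under 2-fold without eat-2 replicate 1 or 3 or N2 replicate 3 (0.82 at the least). asp-8 lost its call without eat-2 replicate 1 or 2 or N2 replicate 1 or 3 (0.72 at the least). In all, the number of aspartic proteases called higher was 2 without eat-2 replicate 1 and 2 without N2 replicate 3. A probe set of asp-5, outside this count, was called higher by 1.11 whichever array was left out. The cysteine cathepsins, another class of lysosomal protease, had 0 of 12 called by limma and 3 at an unadjusted p under 0.05, while all 12 differences were positive, with a median of 0.35 and the largest, 0.88, at cpr-1.

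Sphingolipid enzymes were called higher in 4 of 25 genes (16%, against 0.754% of all genes) and lower in 0. These 4 stayed called whichever array was left out. They are the acid ceramidases asah-1 and asah-2 and the acid sphingomyelinases asm-2 and asm-3, which release ceramide from sphingomyelin. asah-2 had 10.24, 9.96 and 10.08 in eat-2 worms, against 7.17, 7.95 and 8.86 in N2 worms. asm-3 had 9.93, 8.33 and 8.98 in eat-2 worms and 6.7, 6.78 and 6.72 in N2 worms, a difference of 2.35 (adjusted p = 0.223). For asm-3 the spread was all on the eat-2 side, and the N2 arrays agreed within 0.1. asm-2 differed by 1.46, with both groups even. The remaining members moved little: asm-1 differed by 0.16, the serine palmitoyltransferase genes sptl-1, sptl-2 and sptl-3 by 0.13, -0.19 and -0.15, and the ceramide synthases hyl-1, hyl-2 and lagr-1 by 0.03, -0.13 and -0.4. spl-2, a sphingosine phosphate lyase, differed by -1 and was not called at over 2-fold (unadjusted p = 0.000491). The list's median was 0.04.

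Among lipases, 2 of 29 genes (6.9%) were called higher and 2 (6.9%) lower, against 0.754% and 0.841% of all genes. lipl-1, of the lysosomal lipase family, had 11.22, 10.56 and 10.81 in eat-2 worms, against 9.08, 9.49 and 9.68 in N2 worms, and lipl-2, of the same family, had 9.34, 8.4 and 9.19 in eat-2 worms and 7.36, 7.02 and 7.5 in N2 worms. Their groups were well separated, with differences of 1.45 and 1.68, and lipl-5 was just short of 2-fold at 0.99. lipl-4, which is linked to long life in germline-less worms, differed by 0.03 and atgl-1, the lipase of the fat droplets, by -0.02. fil-2, a lipase named for its induction by fasting, had 6.43, 6.6 and 6.6 in eat-2 worms and 8.55, 9.47 and 6.96 in N2 worms. Only N2 replicates 1 and 2 were high, and its call was lost without N2 replicate 1 or any 1 eat-2 array (unadjusted p between 0.059 and 0.0677). lips-17 was the other lower lipase, at -1.41, and was called in 1 of the 6 fits that leave out an array. Without N2 replicate 3, 5 lipases were called higher and 3 lower.

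Fat metabolism outside the lipases gave no common direction. acs-2, a mitochondrial acyl-CoA synthetase that is induced in fasted worms, had 11.96, 11.86 and 12.18 in eat-2 worms, against 9.97, 10.52 and 11.73 in N2 worms (difference 1.26, adjusted p = 0.59). acdh-1, an acyl-CoA dehydrogenase that responds to the diet, had 10.15, 10.52 and 10.29 in eat-2 worms and 12.92, 12.65 and 10.63 in N2 worms (difference -1.75). In both genes N2 replicate 3 lay beside the eat-2 arrays. acs-1 had the pattern of acdh-1, at -1.38. At the probe sets given, all 3 kept their calls only where N2 replicate 3 was left out (unadjusted p between 0.0536 and 0.0855 in the other fits). Of the list of acyl-CoA synthetases, dehydrogenases and beta-oxidation enzymes 1 of 59 genes (1.69%) was called higher and 2 (3.39%) lower. The shares of all genes were 0.754% and 0.841%. Of fatty acid synthesis, elongation and desaturation 0 of 32 genes were called, with 0 at an unadjusted p under 0.05 (limma). Among fatty acid and retinol binding proteins 3 of 17 (17.6%) were called higher and 1 (5.88%) lower. far-8 differed by 1.64, far-6 by 1.27 and lbp-2 by 1.11, whereas far-3 had 10.1, 11.02 and 10.03 in eat-2 worms, against 12.56, 13.5 and 11.3 in N2 worms. far-6 fell to 0.95, under 2-fold, without N2 replicate 1.

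**Figure D3:**
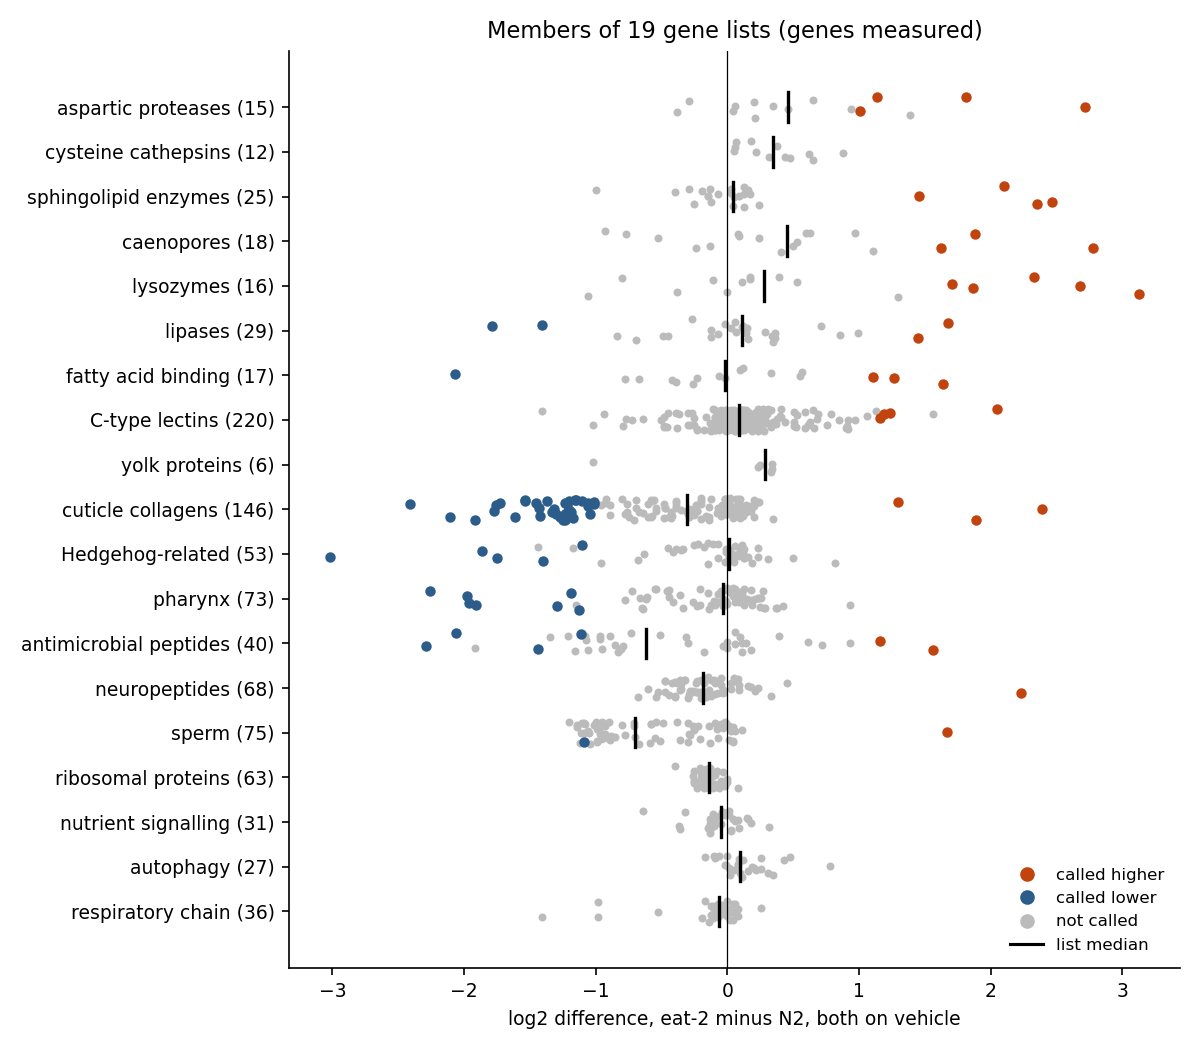
The log2 difference (eat-2 minus N2 on vehicle, horizontal axis) of every measured gene of 19 lists, 1 list per row with its number of genes; red and blue points are genes called higher and lower, grey points genes not called, and the black bar is the median. Lysozymes, caenopores, aspartic proteases and sphingolipid enzymes hold only called genes on the higher side, and cuticle collagens have 35 of their 38 called genes on the lower side.

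The cuticle collagens were the largest list on the lower side. Of 146 collagens 35 (24%) were called lower and 3 (2.05%) higher in eat-2 worms, against 0.841% and 0.754% of all genes. Negative differences were found in 106 of 146, and the median was -0.31. The groups did not overlap in 62 of the 146, against 14.5% of all genes. They did not overlap in 31 of the 35, which these same arrays chose for their difference. The count called lower depended on single arrays. It was 11 without N2 replicate 2, 17 without eat-2 replicate 1 and 21 without eat-2 replicate 3. At an adjusted p under 0.05 there was 0 (limma, with 57 of 146 at an unadjusted p under 0.05). Collagen sequences are alike, and 12 of the 35 probe sets are of the kind marked for cross-hybridisation. Of 17 probe sets that carry several collagen symbols, 12 were also called lower. The 6 epidermal markers, of which dpy-7 and rol-6 are themselves collagens, averaged 7.88, 7.98 and 7.9 in eat-2 worms, against 8.23, 9.02 and 8.5 in N2 worms, with 2 of 6, rol-6 and grl-4, called lower and a median of -0.45, and their part in the collagen result was not tested.

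The fitted size was greatest for dpy-5, a collagen whose loss makes worms short and fat. It had 5.81, 8.41 and 6.35 in eat-2 worms, against 8.08, 10.35 and 9.35 in N2 worms, and the groups overlapped. Its call was lost without eat-2 replicate 1 or 3 or N2 replicate 2 or 3 (unadjusted p between 0.0714 and 0.0899). col-39 had 6.16, 7.07 and 6.18 in eat-2 worms and 7.62, 9.4 and 8.71 in N2 worms, a difference of -2.11. col-77 had 6.55, 7.7 and 6.23 in eat-2 worms and 8.05, 9.62 and 8.55 in N2 worms. In both, eat-2 replicate 2 was the highest mutant array and N2 replicate 2 the highest wild-type array. Body shape collagens were called in both directions, dpy-14 and dpy-17 being higher. On the lower side, rol-6 differed by -1.22, sqt-1 by -1.73, sqt-2 by -1.3 and dpy-13 by -1.23. The calls of rol-6, sqt-1 and sqt-2 were lost without eat-2 replicate 1 or 3 or N2 replicate 2, those of rol-6 and sqt-1 also without N2 replicate 3 (unadjusted p between 0.0384 and 0.135, the lowest with a difference under 2-fold), and that of dpy-13 without N2 replicate 2 (difference -0.99). col-12 differed by -1.43, a call that no single array removed. col-93, a gene of the study's longevity list, was read by 2 probe sets, lower by 1.27 and 1.37, with 12.16, 12.38 and 12.01 in eat-2 worms, against 13.87, 13.71 and 12.79 in N2 worms at the first.

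A second arrangement was seen in col-80, col-159 and col-160, whose N2 replicates 1 and 2 were high and replicate 3 was near the mutants. col-80 had 10.59, 10.71 and 10.46 in eat-2 worms, against 13.07, 12.56 and 10.96 in N2 worms. Its call was lost without eat-2 replicate 1 or 3 or N2 replicate 2 (unadjusted p between 0.0566 and 0.0664). Both arrangements gave called genes, and in 31 of the 35 collagens it was N2 replicate 2 that lay farthest from the eat-2 mean. The same held for 131 of the 144 lower genes, against 56 of the 129 higher genes.

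The 3 collagens that were higher were dpy-14, dpy-17 and col-121. dpy-14 had 10.99, 10.21 and 10.24 in eat-2 worms, against 9.64, 6.63 and 8.01 in N2 worms, and dpy-17 had 11.78, 11.41 and 11.32 in eat-2 worms and 10.82, 8.39 and 9.64 in N2 worms. Here N2 replicate 2 was the lowest array. The call of dpy-14 was lost without eat-2 replicate 1 or N2 replicate 3, that of dpy-17 without eat-2 replicate 1 (unadjusted p between 0.0501 and 0.0602), and that of col-121 in 5 of the 6 fits that leave out an array.

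Hedgehog-related and pharyngeal genes had called members on the lower side only, in lists whose medians were near 0. Of 53 Hedgehog-related genes, which encode secreted proteins of the epidermis, 5 (9.43%) were called lower and 0 higher, although the list's median was 0.01. Of all genes 0.841% were called lower and 0.754% higher. grl-21 had 6.44, 7.74 and 6.66 in eat-2 worms, against 8.75, 11.49 and 9.67 in N2 worms, a difference of -3.02 (adjusted p = 0.447). grl-4, grd-10, grd-5 and grd-14 differed by -1.86, -1.75, -1.4 and -1.1. grd-10 lost its call without eat-2 replicate 1 or 3, and grd-14 without either of these or N2 replicate 2 (unadjusted p between 0.00607 and 0.109, the lowest with a difference under 2-fold). Hedgehog-related genes called lower numbered 3 without eat-2 replicate 1 and 3 without eat-2 replicate 3. Of 82 cutlins and other cuticle or moulting proteins 1 (1.22%) was called higher and 1 (1.22%) lower, near those shares. There were 45 positive differences and a median of 0.06. Of 73 pharyngeal genes 7 (9.59%) were called lower and 0 higher, against 0.841% and 0.754% of all genes. Negative differences were found in 41 of 73, against 7894 of all 17118 genes, and the median was -0.03. The 7 were phat-4, of the pharyngeal glands, and 6 abu genes, whose proteins are linked to the pharyngeal cuticle.

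abu-15 had 5.97, 6.92 and 6.34 in eat-2 worms, against 7.38, 9.8 and 8.82 in N2 worms, a difference of -2.26 that stayed called without any 1 array. The 5 other abu genes, abu-6, abu-8, abu-10, abu-11 and abu-14, differed by -1.13 to -1.98, and the number of lower pharyngeal genes was 1 without eat-2 replicate 1 or 3, 3 without N2 replicate 2 or 3 and 11 without N2 replicate 1. Over the 10 pharyngeal muscle and gland markers the mean signal was 7.85, 8.11 and 8.05 in eat-2 worms, against 8.02, 9.1 and 8.5 in N2 worms, with phat-4 alone called.

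Several of the largest lower differences belonged to genes with no described role. F14F9.2 had 6.18, 8.28 and 6.69 in eat-2 worms, against 9.02, 12.77 and 9.65 in N2 worms, a 10.8-fold lower signal that was not called without eat-2 replicate 1 or 3 (unadjusted p of 0.059 and 0.0629). dbd-13 had 6.96, 8.65 and 7.14 in eat-2 worms and 9.27, 12.12 and 10.81 in N2 worms. dbd-20 had 5.97, 7.08 and 6.05 in eat-2 worms and 8.04, 10.39 and 9.47 in N2 worms. In all 3 genes replicate 2 was the highest array of either genotype. R12E2.7, C45B2.2, F14F8.8, ZK180.5 and R02E4.1 differed by -2.54 to -3.01. dct-7 differed by -2.53 and lost its call without eat-2 replicate 1 or 3 or N2 replicate 2.

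Antimicrobial peptides, among them the caenacin and nlp peptides of the epidermis, had 4 of 40 (10%) called lower and 2 (5%) higher. Of all genes 0.841% were called lower and 0.754% higher. The median of the list was -0.62. nlp-25 had 6.38, 8.3 and 6.65 in eat-2 worms, against 7.85, 10.44 and 9.23 in N2 worms, and the groups overlapped. It lost its call without eat-2 replicate 1 or 3 or N2 replicate 2 or 3 (unadjusted p between 0.0886 and 0.117). cnc-8 differed by -1.44, and abf-2, a defensin-like peptide, by 1.16, which was 0.9 without N2 replicate 1. The count of lower peptides was 16 without N2 replicate 1, 10 without eat-2 replicate 2, 1 without eat-2 replicate 1, and 2 without eat-2 replicate 3, N2 replicate 2 or N2 replicate 3. ins-11, an insulin-like peptide, was lower in eat-2 worms with 6.52, 7.48 and 7.16, against 8.18, 9.47 and 8.48 in N2 worms. It was the 1 gene called lower of 24 in its family (4.17%, against 0.841% of all genes).

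Sperm transcripts varied between arrays of both genotypes. The 28 sperm markers averaged 9.06, 10.86 and 9.1 in eat-2 worms, against 9.36, 11.49 and 11.04 in N2 worms, so that eat-2 replicate 2 and N2 replicates 2 and 3 were high. All 28 were above the dim bound in at least 1 array. Of the 75 genes of the sperm list 65 had negative differences and the median was -0.7. Only 1 gene (1.33%) was called lower and 1 (1.33%) higher, against 0.841% and 0.754% of all genes. Without N2 replicate 1, 34 were called lower. The 144 lower genes averaged 7.1, 7.75 and 7.22 in eat-2 worms and 8.43, 9.67 and 8.55 in N2 worms, and their highest array in each genotype was replicate 2, as for the sperm markers, whereas N2 replicate 3 was close to N2 replicate 1 in these genes and not in the sperm markers. The 35 lower collagens averaged 7.78, 8.47 and 7.86 in eat-2 worms and 9.07, 10 and 9.15 in N2 worms. The part of sperm content or developmental stage in the lower genes was not tested. The 12 germline and oocyte markers averaged 11.06, 10.77 and 11.03 in eat-2 worms and 11.14, 10.61 and 10.97 in N2 worms, with 0 called.

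The genes that carry nutrient signals did not pass the test. Of 31 genes of insulin, TOR and AMPK signalling and of the factors known from feeding restriction 0 were called by limma and 1 had an unadjusted p under 0.05, with a median of -0.05. daf-16, the FOXO factor of the insulin pathway, had 9.39, 9.32 and 9.25 in eat-2 worms, against 9.26, 9.88 and 9.79 in N2 worms. pha-4, a forkhead factor needed for the long life of eat-2 worms, had 7.64, 7.56 and 7.68 in eat-2 worms and 7.58, 8.23 and 7.39 in N2 worms. let-363, which encodes the TOR kinase, differed by -0.03 (0.02 with arrays centred on their medians), aak-2, a catalytic subunit of AMPK, by 0.18 and hlh-30, a regulator of autophagy and lysosome genes, by -0.36. pept-1, the peptide transporter of the intestine, had the largest difference of the list at -0.64. Autophagy genes had 0 of 27 called by limma, with 4 at an unadjusted p under 0.05 and 21 positive differences, and respiratory chain genes had 0 of 36 called and 1 at that p.

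Yolk proteins had 0 of 6 called with a median of 0.29, the nicotinic receptor genes and their partners 0 of 79, and body wall muscle genes 0 of 29 (limma, with 0, 8 and 2 at an unadjusted p under 0.05). Cytosolic ribosomal proteins had 0 of 63 called by limma and 3 at an unadjusted p under 0.05, yet 61 of 63 were lower and 42 of 63 had arrays that did not overlap, against 14.5% of all genes. Their mean signal was 13.73, 13.82 and 13.77 in eat-2 worms, against 13.88, 13.96 and 13.92 in N2 worms, and the median difference of -0.14 was -0.09 with arrays centred on their medians. Of the study's longevity genes beside asm-3 and col-93, the transthyretin-related ttr-1 was higher by 1.13 and the metallothionein mtl-2 by 1.13, 1.02 and 0.83 at its 3 probe sets. The mtl-2 calls at the first and second probe set fell under 2-fold without eat-2 replicate 3 or N2 replicate 1 (0.85 at the least).

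The same genotypes were also compared on 10 micromolar rapamycin, an inhibitor of TOR, in 6 arrays that share none with the vehicle comparison. There 4221 of 22548 probe sets (18.7%) were called, 1702 (7.55%) higher and 2519 (11.2%) lower in eat-2 worms, and 13070 (58%) had an adjusted p under 0.05. Read by gene, 7.82% were called higher and 12.1% lower. Of the calls 40.3% were higher, and 59% with arrays centred on their medians, a scaling that moved the median of all differences by more than 0.1, to 0.33, against 0.1 as deposited. Of the 159 probe sets higher on vehicle, 108 (67.9%) were called higher on rapamycin and 6 lower. Of the 183 lower on vehicle, 140 (76.5%) were called lower on rapamycin and 3 higher. The differences had the same sign in 144 of 159 (90.6%) and 172 of 183 (94%), against 68.6% of all probe sets.

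**Figure D4:**
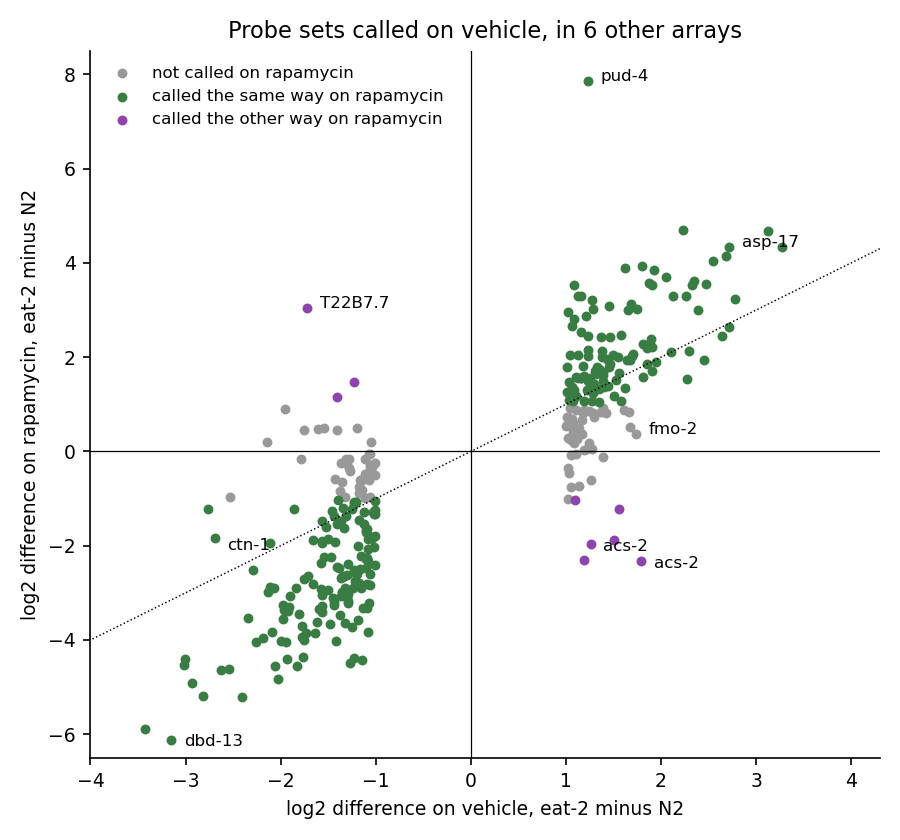
Each point is 1 of the 342 probe sets called on vehicle, with the log2 difference of eat-2 minus N2 on vehicle (horizontal axis) and on rapamycin (vertical axis, 6 other arrays); the dotted line marks equal differences, and colour gives the call on rapamycin. Of the lower points most fall below the dotted line, with medians of -1.35 on vehicle and -2.32 on rapamycin, and 9 probe sets were called in opposite directions, among them both of acs-2.

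Several of the genes named above were also higher in the mutant on rapamycin, though not the lists as wholes: on rapamycin 6 lysozymes were called higher and 2 lower, 5 caenopores higher and 3 lower, 21 lectins higher and 23 lower, 6 lipases higher and 5 lower, and 0 of 12 genes of the intestine list higher and 4 lower. Of the aspartic proteases 3 were called higher there and 0 lower. asah-1 averaged 12.47 ± 0.51 in eat-2 worms and 8.92 ± 0.22 in N2 worms on rapamycin, a difference of 3.55 (adjusted p = 1.1e-05), and asp-17 9.26 ± 0.27 and 4.92 ± 0.092 (SD, 3 arrays each). lys-4 differed by 3.53, asm-3 by 3.62, spp-8 by 2.25 and Y65B4BR.1 by 4.34. Of the 35 lower collagens, 26 were also called lower on rapamycin, a share near the 76.5% of all lower probe sets. Of the 35, 32 were negative there and 0 were called higher. Over all 146 collagens, 42 were called lower on rapamycin and 13 higher, with a median of -0.1, against -0.31 on vehicle. Of all genes 12.1% were called lower on rapamycin and 7.82% higher. dpy-5 averaged 6.69 ± 0.52 in eat-2 worms and 11.89 ± 0.15 in N2 worms on rapamycin, and dbd-13 6.09 ± 0.57 and 12.21 ± 0.28. The collagens of the second arrangement did not follow: col-80 differed by 0.47, col-159 by 0.49 and col-160 by 0.46 and 0.5 there, none of them called. Other lower collagens kept their sign but were not called there either. These were col-12 (-0.59), col-93 (-0.42 at the first probe set), col-98 (-0.63), col-139 (-0.97), col-146 (-0.24) and col-147 (-0.28).

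In the lower probe sets the median difference between rapamycin and vehicle was 0.28 in eat-2 worms and 1.13 in N2 worms. The 144 genes averaged 7.72, 7.9 and 7.68 in eat-2 worms on rapamycin and 9.95, 9.89 and 10.12 in N2 worms on that drug. On allantoin the N2 arrays averaged 7.73, 7.75 and 8.26, nearer to the eat-2 vehicle arrays (7.1, 7.75 and 7.22) than were the N2 vehicle arrays (8.43, 9.67 and 8.55). The N2 vehicle arrays took part in choosing these genes for being high, which by itself favours this order, and N2 replicate 2 was the farthest away. dbd-13 averaged 7.58 ± 0.93 in eat-2 worms on vehicle and 7.41 ± 1.2 in N2 worms on allantoin, and dpy-5 averaged 6.86 ± 1.4 and 7.25 ± 1.1 in the same groups. The 129 higher genes were different: they averaged 10.35, 10.05 and 10.24 in eat-2 worms on vehicle and 9.87, 9.58 and 9.99 in eat-2 worms on rapamycin, against 8.81, 8.54 and 8.87 in N2 worms on vehicle, 8.24, 8.15 and 8.15 on rapamycin and 9.08, 9.13 and 8.88 on allantoin. Every mutant array was above every wild-type array. The vehicle arrays chose the higher genes as they did the lower ones, and the separation of both sets on vehicle is therefore fixed by the choice.

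**Figure D5:**
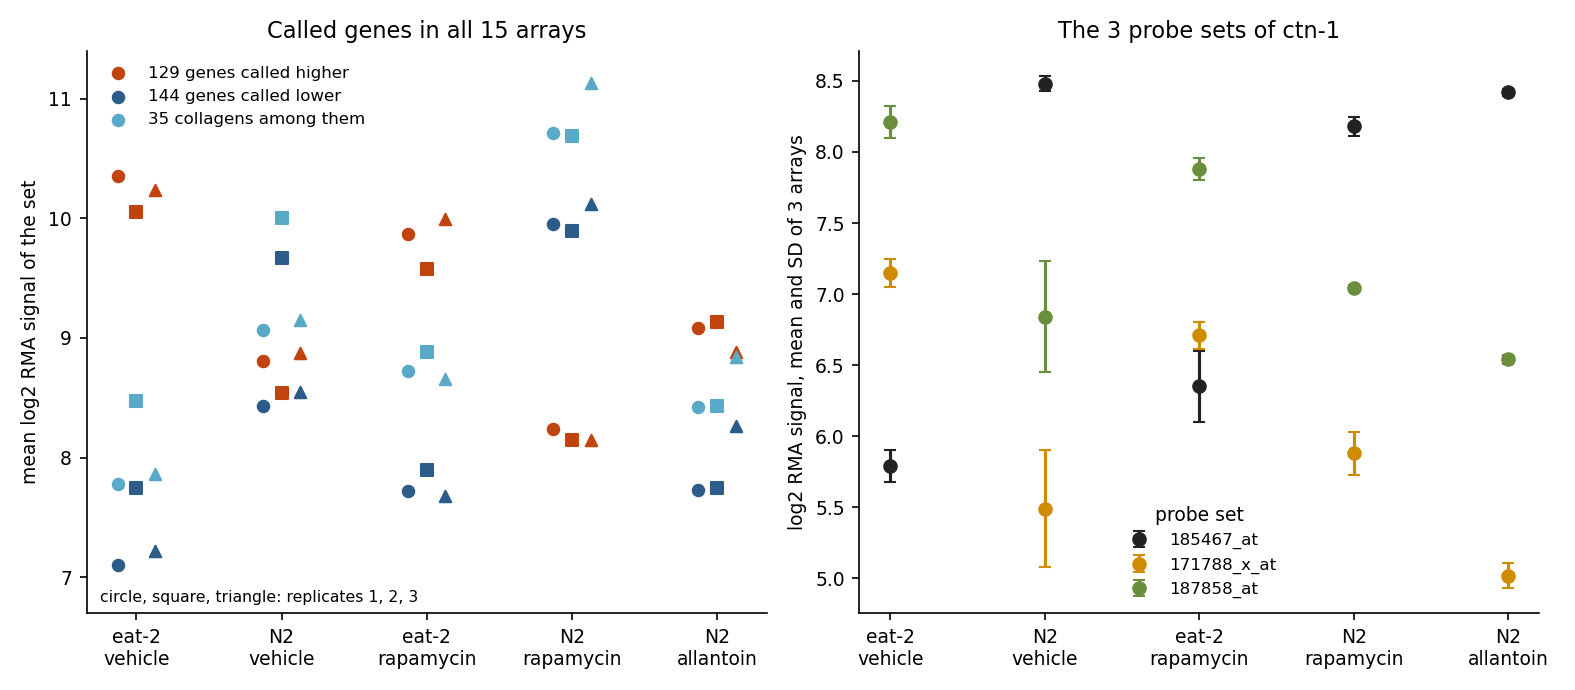
Left, the mean log2 signal (vertical axis) of the 129 genes called higher, the 144 called lower and the 35 collagens among those called lower in each of the 15 arrays by group (horizontal axis), with the replicate as the symbol; right, the 3 probe sets of ctn-1 as mean and SD of 3 arrays in each group. The higher genes separate all eat-2 arrays from all N2 arrays, and the lower genes in N2 worms on allantoin lie nearer to eat-2 worms than N2 worms on vehicle do. The vehicle arrays chose both sets. Probe set 185467_at of ctn-1 is low in both eat-2 groups only.

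A test of the difference between the 2 genotype contrasts, in 12 arrays, passed an adjusted p of 0.05 at 5507 probe sets (24.4%) and an unadjusted one at 39%. Of the 5507, 107 were among the 342 called on vehicle. The count was 8513 without N2 vehicle replicate 2, 3600 without eat-2 vehicle replicate 2, 3440 without eat-2 rapamycin replicate 1, 3609 without eat-2 rapamycin replicate 3 and 3267 without N2 rapamycin replicate 3. The difference was 3.23 for acs-2 (adjusted p = 0.00705), whose signal on rapamycin averaged 9.08 ± 0.79 in eat-2 worms and 11.06 ± 0.23 in N2 worms, the reverse of the order on vehicle. Of the 9 probe sets called in opposite directions, aqp-1, an aquaporin, differed by 1.56 on vehicle and -1.22 on rapamycin and oac-14 by 1.51 and -1.88. The vehicle call of aqp-1 held only where N2 replicate 3 was left out, and that of oac-14 was lost without eat-2 replicate 2 (unadjusted p between 0.0537 and 0.0985). far-6 differed by 1.27 on vehicle and 0.06 on rapamycin, and the difference between these had an adjusted p of 0.0237. These genes were higher in eat-2 worms on vehicle and were not higher on rapamycin.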

How the data were processed

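The authors put 200 ng of total RNA into each labelling reaction, normalised the array scans by RMA in Affymetrix Expression Console and deposited log2 signals of 22625 probe sets; program versions are not given in the sources used here. The 77 control probe sets were left out. The platform's annotation gives a single symbol to 20766 of the rest, more than 1 to 887 and none to 895. Genes on several probe sets were read by the one of highest mean over 15 arrays. limma 3.58.1 in R 4.3.3 compared eat-2 with N2 worms on the 6 vehicle arrays, on the 6 rapamycin arrays, and the 2 contrasts on 12 arrays, and was tested on simulated data. The threshold follows the study's methods. Named were eat-2, genes at an adjusted p under 0.05, the 12 largest non-overlapping differences each way, up to 4 called members per list or, with 0 called, its brightest, nutrient genes and the study's longevity genes; further genes were chosen after their values were seen. Members and lists were chosen with earlier results of these data known. Replicate numbers paired the arrays only in part, and the main fits took no pairing. Deviations of same-numbered arrays correlated at 0.448, 0.454 and -0.165 on vehicle and 0.177, 0.197 and 0.035 on rapamycin. On vehicle, replicates 1 and 2 correlated best with their own number, and eat-2 replicate 3 with N2 replicate 1 (0.43). Precision is limited by how few arrays there are. Alternatives were other fits and scalings, a fold of 1.5, a filter on dim probe sets, and each array left out.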

Additional observations from a re-analysis of the deposited data

Results flagged for a closer look

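For 23 of the 94 named and called probe sets the genotype difference on vehicle differed from that on rapamycin at an adjusted p under 0.05 (limma, 12 arrays). That is near the share of all probe sets that passed the same test, 24.4%, and so does not mark out the named genes. Of the 23, 17 were larger on rapamycin with the same sign, 5 were smaller and 1 had the opposite sign. Values here are the vehicle difference minus the rapamycin difference, on the log2 scale. Among gut, lysosomal and lipid genes it was -1.62 for asp-17, -1.08 for asah-1, -0.96 for asm-2, -1.45 for lipl-2, -2.28 for spp-4, -1.72 for ilys-5, -2.14 for clec-174, -1.21 for try-14, -0.4 for F37H8.5 and -1.95 for C04H5.7, all of which were higher in eat-2 worms on vehicle and further apart on rapamycin. The metallothionein mtl-2 was of the same kind at both called probe sets (-2.17 and -1.92), and so was the neuropeptide gene nlp-39 (-2.47). Among genes lower in eat-2 worms, those further apart on rapamycin were dbd-13 (2.97), grd-10 (2.25), fog-3 (2.23) and col-90 (2.16). Differences that were smaller on rapamycin were found for far-6 (1.21), ssp-37 (1.15), ctn-1 (-0.85), nlp-26 (-0.94) and ugt-64 (-1.01). acs-2 had the opposite sign (3.23). Without N2 vehicle replicate 2 the test passed 8513 probe sets, and 3267 to 4785 without any other array, against 5507 with all.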

How the results depend on the processing

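None of the 94 named and called probe sets changed direction under the alternatives tried; some genes not called, such as let-363 (-0.03, and 0.02 with centred arrays), changed sign around 0. Against 342 called probe sets, 611 were called with array weights, 198 with an unmoderated test and 800 at a fold of 1.5, and 196 to 1144 with 1 array left out. In place of 9, the number at an adjusted p under 0.05 was 374 with all 15 arrays in 1 fit, 39 with array weights, 14 without the dimmest 25%, 2 with cyclic loess, 14 with arrays centred on their medians, 2 unmoderated, 32 with a trended limma fit, and 0 to 445 with 1 array left out. With the replicate number as a block, a pairing that the arrays bore out only in part, 466 were called, 341 of them shared. With that block 0 had an adjusted p under 0.05. Replicates did not each correlate best with their own number. The difference between the genotype contrasts passed 3267 to 8513 probe sets with 1 of 12 arrays left out, 6965 centred and 5113 with cyclic loess, alternatives chosen after seeing the data. The cause was not tested for any of these. Of the 94 named and called probe sets, 52 were called whichever array was left out and 94 with the block. Probe sets near the dim bound limit the size of a fold: their N2 or eat-2 signal may be background.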

Other observations

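Beyond the lists, other called genes with digestive or lysosomal products were higher in eat-2 worms, and were chosen here after their values were seen. cht-3, a chitinase, had 12.97, 12.4 and 12.83 in eat-2 worms, against 11.27, 11.15 and 11.68 in N2 worms, and pho-14, an acid phosphatase, had 10.15, 10.32 and 10.32 in eat-2 worms and 8.66, 8.72 and 9.37 in N2 worms. nuc-1, the acid DNase that degrades the DNA of dying cells and of food bacteria, differed by 1.16 on vehicle and 2.53 on rapamycin. The vehicle calls of cht-3 and pho-14 held without any 1 array, and that of nuc-1 fell to 0.95 without N2 replicate 2. hex-1, a lysosomal hexosaminidase, was called at 2 probe sets, higher by 1.35 and 1.22, but overlapped N2 replicate 3 and kept the call only where that array was left out. fmo-2, a flavin-containing monooxygenase that dietary restriction induces and that lengthens worm life, had 12.74, 12.57 and 12.97 in eat-2 worms, against 11.19, 10.42 and 11.45 in N2 worms. It differed by 1.74 on vehicle and by 0.37 on rapamycin, where it was not called, with 12.07 ± 0.8 in eat-2 worms and 11.7 ± 0.11 in N2 worms.

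Further called genes, picked singly after their values were seen and not from a list, were dsl-6, dsl-3 and arg-1, which encode DSL-type Notch ligands and differed by 1.61, 1.43 and 1.09. The call of dsl-3 was lost without eat-2 replicate 1 or N2 replicate 2 or 3, and that of arg-1 without N2 replicate 2 (0.83). egl-1, which starts programmed cell death, had 8.99, 8.85 and 8.8 in eat-2 worms, against 8.25, 7.35 and 7.87 in N2 worms, and differed by -0.76 on rapamycin; its vehicle call was lost without eat-2 replicate 1 or N2 replicate 2 (0.82 at the least). pud-4, of a nematode-specific family, differed by 1.23 on vehicle with overlapping groups and by 7.86 on rapamycin, where it averaged 12 ± 0.32 in eat-2 worms and 4.14 ± 0.34 in N2 worms, the second below the dim bound. Its vehicle call was lost without eat-2 replicate 1 or 3 or N2 replicate 1 or 3 (unadjusted p between 0.0737 and 0.102). Of 270 called genes placed on chromosomes, 37 had a measured neighbour called the same way. How many would do so by chance was not tested, so that no clustering can be read from this count. Runs of 3 were ZK813.2, ZK813.3 and ZK813.7 among higher genes, and H23N18.5, C02E7.7 and C02E7.6 as well as C45B2.2, spig-20 and C45B2.8 among lower genes, and pairs were ttr-1 with ttr-2, col-39 with col-80, abu-6 with abu-15 and nlp-25 with nlp-26. Whether neighbours share probe sequence was not tested.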
